A study of Mus musculus with 54 samples.

Results

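The branched-chain keto acids (BCKA) are what remains of leucine, isoleucine and valine (the branched-chain amino acids, BCAA) once the amino group has been replaced by a keto group. The comparison described here asked what BCKA did to resting primary mouse lung fibroblasts kept in medium without BCAA: 3 libraries with BCKA added were set against 3 without, over all genes. These are 6 of the 54 samples of the study, and 13084 of the 26264 genes in the fibroblast table reached a transcript share (TPM, transcripts normalised to library and gene length) of at least 1 in at least 3 of its 24 libraries and were tested. All fibroblasts were wild type (WT) and were kept at 5% oxygen. They spent 24 h in complete medium, in BCAA-free medium, or in BCAA-free medium to which either BCAA or BCKA had been added back. They then received PBS or, for 48 h, transforming growth factor β1 (TGF-β1) at 20 ng/mL. There were 3 libraries for each of these 8 groups. The resting groups are those with PBS. The labels give neither the concentration of BCKA or BCAA nor the age and number of the animals that gave the cells. They call the cells primary and put all 24 libraries in 1 batch. Nothing says that the 3 libraries of a group came from separate cultures, so p-values measure only the spread between these libraries.

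Cells take the amino group off BCAA with the transaminases Bcat1 and Bcat2, and the mitochondrial BCKA dehydrogenase, which the kinase Bckdk switches off and the phosphatase Ppm1k switches on, burns the resulting keto acids. The transaminases also run backwards, so that added BCKA can be turned into BCAA. Oxygen sensing uses another keto acid: the prolyl hydroxylases Egln1 and Egln3 need oxygen and 2-oxoglutarate to mark the transcription factor HIF for destruction. HIF binds short DNA words with the core CGTG, and its known targets include glucose transport, glycolytic enzymes, lactate export and the prolyl hydroxylases themselves.

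The cells carried the markers of fibroblasts. Pdgfra stood at 960 to 1385 TPM and Dcn at 354 to 450 TPM in the 6 libraries, and the summed level of 15 alveolar and adventitial fibroblast markers was 4551 to 5020 TPM without and 4702 to 5213 TPM with BCKA. The 9 lymphocyte markers summed to at most 0.551 TPM, the 10 endothelial markers to at most 7.99 TPM and the 12 macrophage and dendritic cell markers to at most 10.3 TPM in these libraries. Markers of pericytes and smooth muscle summed to 2287 to 2544 TPM without BCKA and to 1665 to 1747 TPM with it, and this list shares genes with the contractile list. Mesothelial markers summed to 69.2 to 77.0 TPM without and 87.4 to 94.3 TPM with BCKA, and 1 of 6, Wt1, rose (adjusted p = 0.0419), a call lost after median centring and whichever of the 6 libraries was left out (adjusted p = 0.0917 to 0.221). The lists for adipocytes and for type 1 and type 2 alveolar epithelium summed to 387 to 423, 204 to 223 and 105 to 119 TPM without BCKA through 2 or 3 tested members each, and to 385 to 431, 215 to 225 and 89.6 to 119 TPM with it. The part of these cells in the results was not tested. The 3 BCAA-free libraries were less alike than those of the other resting groups, with pairwise correlations of 0.9863 to 0.9935 across genes against 0.9929 to 0.9962 in the BCKA group. Ribosomal protein transcripts summed to 29500 to 39860 TPM in them and to 29050 to 33570 TPM with BCKA. The 3 libraries labelled TGF-β1 in BCAA-free medium stood apart from all others, as described with the TGF-β1 results. They enter the comparisons at rest only through the estimate of spread and the expression filter, which counts all 24 libraries. A TPM is a share of the library, so a group of genes that takes a larger share leaves less for the others.

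With BCKA 87 genes passed an adjusted p of 0.05 (limma, Benjamini-Hochberg), which is 0.665% of the genes tested. Of these, 52 were higher (0.397%) and 35 lower (0.268%), and the median change over all tested genes was 0.03 on the log2(TPM + 1) scale used throughout. With the library medians set equal, 37 were higher and 38 lower. With 1 library left out, 31 to 43 genes were higher and 13 to 22 lower, and with a pseudocount of 0.1 in place of 1 these were 44 and 15. On the log2(TPM + 1) scale, which shrinks the changes of low genes, 5 genes rose and 1 fell at least 2-fold. By the ratio of mean TPM 10 of the 52 and 9 of the 35 reached 2-fold. Glycolytic and hypoxia-responsive genes made the largest group among the lists examined, with 17 different genes, all higher. Genes of the antioxidant and haem response were higher as well, while genes of cell division, of the contractile apparatus and a few collagen-binding matrix genes were lower. At the threshold, Ckap2l (log2 change −0.95) and Csf3r (−0.52), both with an adjusted p of 0.0477, lay just inside, and Sspo (0.73, 0.0533) and Ccnb1 (−0.59, 0.0546) just outside. Without the TGF-β1 libraries in BCAA-free medium, a fit chosen after the data were seen, 188 genes passed and 86 of the 87 were among them. In that fit 115 of all 13084 genes tested were higher and 73 lower. Higher were 16 of 21 glycolytic, 11 of 20 hypoxia and 7 of 23 antioxidant genes. Lower were 13 of 36 cell division, 8 of 25 contractile and 5 of 43 matrix genes. The 95% confidence interval of a gene reached a median of 0.32 to either side of its log2 change.

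**Figure D1:**
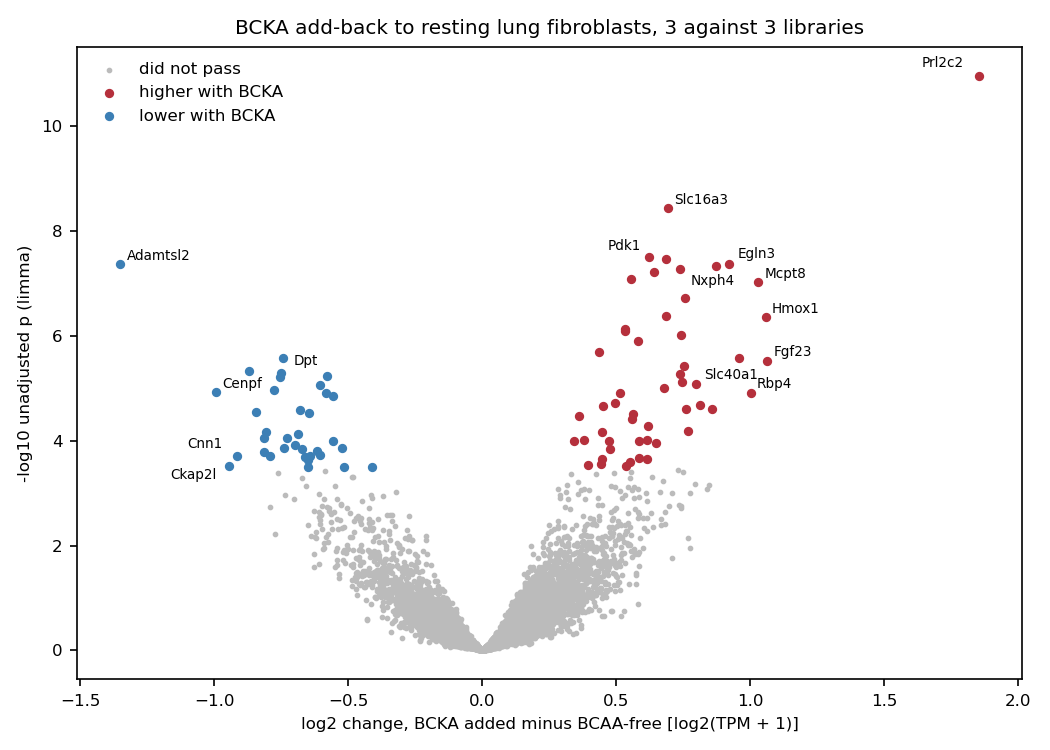
Log2 change on log2(TPM + 1) against the −log10 of the unadjusted p of limma for 13084 genes, BCKA added minus BCAA-free, in resting fibroblasts with 3 libraries in each group. Red points are the 52 genes that passed as higher, blue points the 35 that passed as lower and grey points the rest; Prl2c2 stands farthest to the right and Adamtsl2 farthest to the left.

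Because the HIF core is known from the promoters of several of the genes that rose, the sequences around 5 of their start sites are shown, from 250 bases before to 50 bases after the start, 5′ to 3′ on the gene's own strand. They are from RefSeq on GRCm38.p6, which is not the mm39 build named in the submitters' processing notes. Capitals mark ACGTG or GCGTG on either strand, so that CACGT and CACGC are the same words read on the other strand and CACGTG holds one on each. Egln3 lies on the minus strand at chr12:54203825-54204124, Slc16a3 on the plus strand at chr11:120948817-120949116, Pdk1 on the plus strand at chr2:71872974-71873273, Pgk1 on the plus strand at chrX:106186850-106187149 and Bnip3 on the minus strand at chr7:138909457-138909756.
Egln3: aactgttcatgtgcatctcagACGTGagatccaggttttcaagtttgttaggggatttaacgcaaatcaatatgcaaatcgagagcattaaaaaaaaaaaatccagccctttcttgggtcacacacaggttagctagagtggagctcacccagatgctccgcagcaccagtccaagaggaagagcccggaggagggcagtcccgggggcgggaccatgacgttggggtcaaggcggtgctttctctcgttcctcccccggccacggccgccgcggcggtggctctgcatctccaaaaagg
Slc16a3: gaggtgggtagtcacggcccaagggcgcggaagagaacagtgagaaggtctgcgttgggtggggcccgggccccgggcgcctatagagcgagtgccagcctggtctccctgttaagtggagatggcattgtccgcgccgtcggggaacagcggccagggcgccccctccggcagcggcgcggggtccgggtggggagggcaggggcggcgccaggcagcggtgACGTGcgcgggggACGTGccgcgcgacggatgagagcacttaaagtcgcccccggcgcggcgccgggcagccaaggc
Pdk1: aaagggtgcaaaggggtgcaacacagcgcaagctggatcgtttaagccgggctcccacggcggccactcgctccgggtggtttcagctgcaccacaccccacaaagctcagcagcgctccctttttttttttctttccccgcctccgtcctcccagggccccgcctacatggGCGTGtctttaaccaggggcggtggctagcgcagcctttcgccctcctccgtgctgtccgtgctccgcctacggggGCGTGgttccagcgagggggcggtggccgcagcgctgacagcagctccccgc
Pgk1: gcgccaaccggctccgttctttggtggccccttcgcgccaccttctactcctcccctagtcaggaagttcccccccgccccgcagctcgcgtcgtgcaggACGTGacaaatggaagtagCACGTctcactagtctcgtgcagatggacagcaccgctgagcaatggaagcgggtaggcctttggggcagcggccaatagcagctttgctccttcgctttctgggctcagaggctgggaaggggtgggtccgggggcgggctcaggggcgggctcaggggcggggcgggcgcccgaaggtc
Bnip3: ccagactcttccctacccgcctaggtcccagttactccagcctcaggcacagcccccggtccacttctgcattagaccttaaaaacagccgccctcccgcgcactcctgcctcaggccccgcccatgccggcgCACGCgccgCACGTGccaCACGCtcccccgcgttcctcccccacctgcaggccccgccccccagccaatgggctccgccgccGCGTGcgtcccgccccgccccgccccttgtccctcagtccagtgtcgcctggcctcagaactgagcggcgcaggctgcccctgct
The Egln3 window holds 1 such word, those of Slc16a3, Pdk1 and Pgk1 hold 2 each, and that of Bnip3 holds 5. ACGTG was found in 19.7% of all 27025 promoters in the table and in 25.7% of the 10412 promoters matched to tested genes. It was found in 12 of the 17 glycolytic and hypoxia-responsive genes that rose (70.6%), all of which matched, and in 21 of the 42 matched genes among all those that rose (50%). Of the 22 matched genes that fell, 4 held it (18.2%). The lists from which the 17 come are rich in it whether or not a gene passed: it was in 12 of the 18 matched hypoxia genes (66.7%) and 10 of the 21 glycolytic ones (47.6%). Either word was found in 63.2% of the promoters of tested genes and in 16 of the 17 (94.1%), the exception being Vegfa, the angiogenic growth factor. Whether or not a gene passed, it was in 17 of the 18 matched hypoxia genes (94.4%) and 15 of the 21 glycolytic ones (71.4%). Of the 42 matched genes that rose, which include the 17, 32 held either word (76.2%). Of the 22 matched genes that fell, 14 held either word (63.6%). A match is a description of letters and not evidence of binding. The antioxidant word TGACNNNGC, searched on both strands, was in 14.9% of the promoters of tested genes and in 7 of the 42 (16.7%).

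Egln3, a HIF prolyl hydroxylase that HIF itself induces, was listed at 22.7, 21.3 and 25.6 TPM in BCAA-free medium and at 45.9, 42.8 and 45.3 TPM with BCKA. The groups did not overlap, and the complete medium and BCAA groups lay at 20.2 ± 1.08 and 20.6 ± 0.482 TPM (SD, n = 3). The log2 change was 0.92 (SE 0.11, adjusted p = 8.81e-05). Egln1, the main prolyl hydroxylase of most tissues, stood at 90.0, 94.0 and 86.3 TPM without BCKA and at 121, 119 and 127 TPM with it. It rose by 0.44 (SE 0.07, adjusted p = 0.00138), again above complete medium (88.4 ± 1.48 TPM) and BCAA add-back (85.6 ± 0.847 TPM; SD, n = 3). The transcript of HIF's own oxygen-labile subunit, Hif1a, showed no such difference, with 292, 252 and 330 TPM without and 308, 280 and 281 TPM with BCKA. The 95% confidence interval of its log2 change was −0.21 to 0.21.

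Of the 20 tested genes of glucose sensing and hypoxia, 8 rose and 0 fell, with a median log2 change of 0.38. Vegfa was among the most even, at 144, 145 and 150 TPM without BCKA and at 229, 228 and 229 TPM with it. It rose by 0.64 (SE 0.08, adjusted p = 8.91e-05). Bnip3, which marks mitochondria for removal, was listed at 109, 99.2 and 108 TPM without and 172, 170 and 193 TPM with BCKA. The groups were clear of each other, and the log2 change was 0.75 (SE 0.12, adjusted p = 0.00211). Ero1a, an oxidase of protein folding, rose by 0.69 (adjusted p = 0.000411) and the weakly expressed Ankrd37 by 0.86 (adjusted p = 0.00767). The collagen prolyl hydroxylases P4ha1 and P4ha2 rose by 0.34 and 0.52 (adjusted p = 0.0217 and 0.00444), and neither passed after median centring or without BCKA replicate 3. P4ha1 also lost its call without any other 1 of the 6 libraries (adjusted p = 0.0546 to 0.114), and Ankrd37 without BCKA replicate 3 (0.0656) or BCAA-free replicate 1 (0.0592). Of the 8 genes, 5 passed without BCKA replicate 3, 6 without BCAA-free replicate 1, where Ddit4 entered, and 7 without any other single library. Car9, a carbonic anhydrase often used as a marker of hypoxia, missed the threshold, at 3.40 to 4.60 TPM without and 5.38 to 6.77 TPM with BCKA (log2 change 0.55, adjusted p = 0.067). Ddit4 was close as well (0.56, adjusted p = 0.0574), whereas Adm, another known HIF target, gave 0.12 with an interval of −0.23 to 0.46. The summed level of the list was 3706 to 3767 TPM in BCAA-free medium and 4451 to 4561 TPM with BCKA, against 3591 to 3685 TPM in complete medium and 3535 to 3763 TPM with BCAA.

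Glycolysis had the highest median of the lists, 0.45 on the log2 scale. All 21 members had a positive change, 9 of them rose and 0 fell, and in 18 all 3 BCKA libraries lay above all 3 others, as in 8.93% of all tested genes (the reverse order held in 4.66%). At an unadjusted p under 0.05, 16 were higher, as were 4.35% of all tested genes. Slc16a3, the exporter of lactate, was listed at 77.8, 84.0 and 81.5 TPM without and at 128, 130 and 138 TPM with BCKA. No library of one group reached the other, and the change of 0.69 (SE 0.07, adjusted p = 2.37e-05) had the smallest p after that of Prl2c2. Slc2a1, the glucose transporter of most cells, stood at 119, 117 and 119 TPM without and 191, 181 and 202 TPM with BCKA (log2 change 0.69, SE 0.08, adjusted p = 8.81e-05). Hk2, which traps glucose as its phosphate, went from 20.6, 18.3 and 21.2 TPM to 36.1, 34.3 and 32.1 TPM (0.74, SE 0.11, adjusted p = 0.000735). Both steps at the entry of glucose into the pathway were thus higher in every BCKA library than in any BCAA-free one. Pdk1, the kinase that keeps pyruvate out of the citric acid cycle, was listed at 70.5, 63.6 and 68.5 TPM without and 106, 103 and 105 TPM with BCKA (0.62, SE 0.07, adjusted p = 8.81e-05). Pgk1, which makes ATP in the pathway, stood at 370, 397 and 402 TPM without and 582, 549 and 622 TPM with BCKA (0.58, SE 0.09, adjusted p = 0.00091). The other 4 that rose were the phosphofructokinases Pfkl and Pfkp, the mutase Pgam1 and the enolase Eno1, by 0.45 to 0.56. Ldha, Pkm and Gapdh were higher by 0.38, 0.35 and 0.27 without passing (adjusted p = 0.0965, 0.24 and 0.835).

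**Figure D2:**
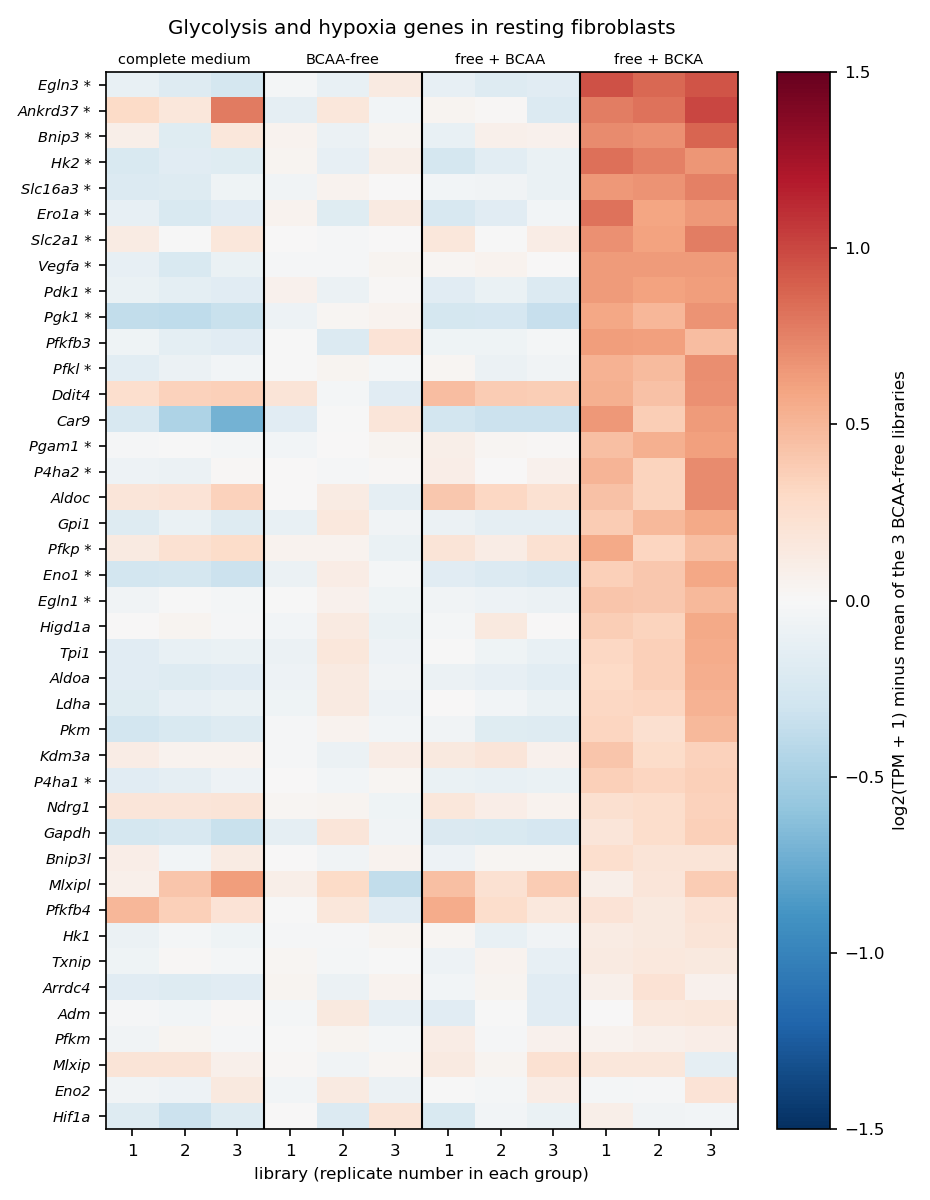
Heat map of log2(TPM + 1) for the tested genes of the glycolysis and the glucose sensing and hypoxia lists, minus the mean of the 3 BCAA-free libraries, in the 12 resting libraries (columns, replicate numbers below); red is higher, blue lower, and an asterisk marks genes that passed against BCAA-free medium. The 3 BCKA libraries are red for most genes, while those of complete medium and BCAA add-back are mostly pale or blue, with Ankrd37, Mlxipl and Pfkfb4 among the exceptions.

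Several genes outside both lists that are known to respond to hypoxia rose by similar amounts; apart from Nxph4 and Fam162a, they were chosen after their values were seen. Gbe1, the glycogen branching enzyme, rose by 0.74 (adjusted p = 8.87e-05), the mitochondrial adenylate kinase Ak4 by 0.76 (adjusted p = 0.000203) and the repressor Bhlhe40 by 0.56 (adjusted p = 0.000109). Fam162a, a mitochondrial protein, rose by 0.77 (adjusted p = 0.0164), a call lost without BCKA replicate 1 or 3 or BCAA-free replicate 1 or 3 (adjusted p = 0.0641 to 0.117). Ppp1r3c, which brings a phosphatase to glycogen, rose by 0.68 (adjusted p = 0.00403). Nxph4, a secreted ligand of neurexins in the brain, was listed at 11.4, 10.9 and 11.1 TPM without and 20.0, 19.6 and 24.3 TPM with BCKA (0.87, SE 0.11, adjusted p = 8.81e-05).

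The largest rise was that of Prl2c2 (proliferin, a placental hormone of the prolactin family), which was listed at 12.3, 12.2 and 14.1 TPM without and at 49.1, 45.5 and 53 TPM with BCKA. The groups were far apart, with complete medium at 22.2 ± 2.93 and BCAA add-back at 24.4 ± 0.523 TPM (SD, n = 3) between them. The log2 change was 1.86 (SE 0.14, adjusted p = 1.43e-07). Prl2c2 has near-identical copies among which reads can be split, so its level is uncertain. Fgf23, the phosphate-regulating hormone of bone, was listed at 14.7, 18.3 and 15.3 TPM without and 31.9, 41.5 and 31.0 TPM with BCKA (1.06, SE 0.17, adjusted p = 0.00176), against 7.73 ± 1.12 TPM in complete medium (SD, n = 3). Mcpt8, a protease best known from basophils, rose by 1.03 (adjusted p = 0.000111) to 10.2 to 12.1 TPM, and the retinol carrier Rbp4 rose by 1.00 (adjusted p = 0.00444). The 7 neutrophil and mast cell markers summed to 1.22 to 1.81 TPM in the same BCKA libraries and to 1.97 to 3.29 TPM without BCKA.

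Genes of the NRF2 and haem response answer oxidants and free haem. Of 23 tested, 4 rose and 0 fell, and the median log2 change was 0.30. Hmox1, which breaks down haem, was listed at 57.5, 60.3 and 53.6 TPM without and 118, 112 and 130 TPM with BCKA. The BCAA-free libraries lay below every other resting library, with complete medium at 107 ± 11.2 and BCAA add-back at 97.0 ± 8.14 TPM (SD, n = 3). The log2 change was 1.06 (SE 0.15, adjusted p = 0.000411). Gclc, which limits glutathione synthesis, stood at 78.5, 65.3 and 81.7 TPM without and 126, 123 and 128 TPM with BCKA (0.74, SE 0.12, adjusted p = 0.00269). Srxn1 and Pgd, which repair oxidised peroxiredoxins and supply NADPH, rose by 0.36 and 0.38 (adjusted p = 0.00937 and 0.0217). Outside the list, both gates of iron rose, the exporter Slc40a1 by 0.80 (adjusted p = 0.00356) and the transferrin receptor Tfrc by 0.76 (adjusted p = 0.00767). The list's count was 2 without BCKA replicate 1 or 3 or BCAA-free replicate 1, where Pgd was among those lost, and Tfrc lost its call without BCKA replicate 1 (0.0806) or BCAA-free replicate 2 (0.0758). Of this list 0 genes passed in limma against BCAA add-back or against complete medium, with medians of 0.14 and 0.17. At an unadjusted p under 0.05, 2 of the 23 were higher than with BCAA, where 2.36% of all tested genes were, and 6 were higher than in complete medium, where 4.22% of all were. In both, 0 of the 23 were lower.

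**Figure D3:**
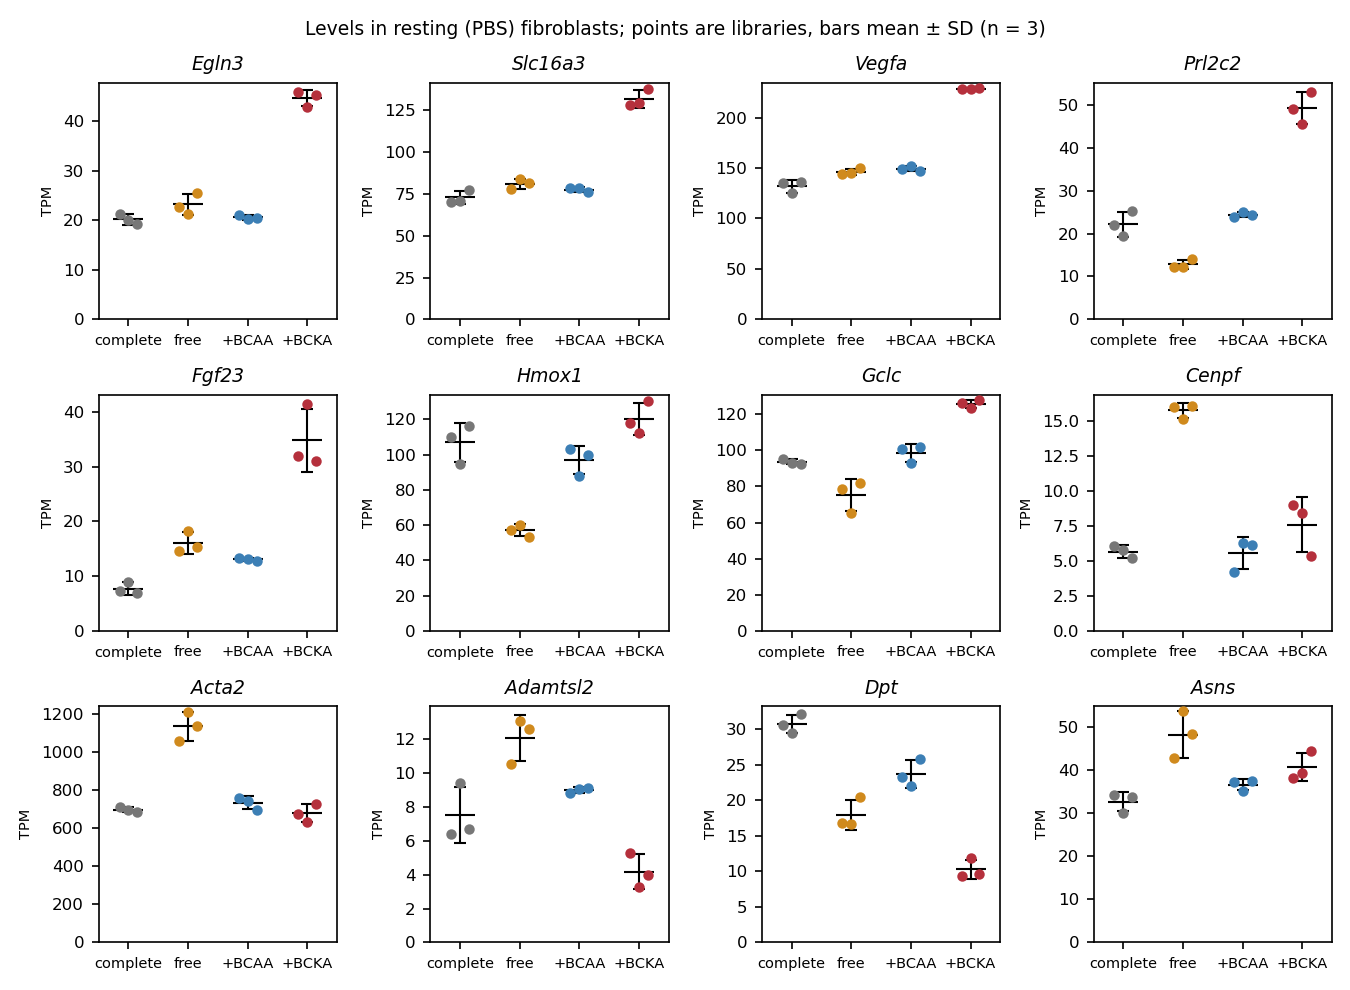
TPM of 12 genes in the 4 resting groups, each point a library and each bar the mean ± SD (n = 3), on linear axes from 0. Egln3, Slc16a3, Vegfa, Prl2c2 and Fgf23 are highest with BCKA, while Adamtsl2 and Dpt are lowest with BCKA. In BCAA-free medium Hmox1 is lowest and Cenpf and Acta2 are highest.

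Cell division genes moved the other way. All 36 tested members had a negative log2 change, with a median of −0.57, and 6 fell: Cenpf, Ckap2l, Prc1, Bub1, Tpx2 and Racgap1. At an unadjusted p under 0.05, 34 of the 36 were lower, as were 2.41% of all tested genes. Cenpf, a kinetochore protein, was listed at 16.1, 15.2 and 16.1 TPM without and 9.03, 8.45 and 5.33 TPM with BCKA, and fell by 0.99 (SE 0.18, adjusted p = 0.00444). Complete medium (5.68 ± 0.438 TPM) and BCAA add-back (5.55 ± 1.14 TPM; SD, n = 3) were near the lowest of the BCKA libraries. The spindle protein Prc1 stood at 21.5, 25.6 and 20.9 TPM without and 12.9, 15.9 and 12.6 TPM with BCKA (−0.68, SE 0.13, adjusted p = 0.00784). Mki67, the common marker of dividing cells, was listed at 32.3, 36.1 and 37.9 TPM without and 26.4, 26.6 and 16.9 TPM with BCKA and did not pass (−0.61, adjusted p = 0.176). Fewer dividing cells and less of these transcripts in each cell cannot be told apart in such samples. The number of these genes that passed depended on single libraries: it was 0 without BCKA replicate 3, 1 without BCAA-free replicate 2, 2 without BCKA replicate 1 and 3 without BCAA-free replicate 1. Cenpf passed in all but the first of these (adjusted p = 0.0518). DNA replication genes (31 tested) gave 0 passing genes in limma and a median of −0.07, with 2 lower and 0 higher by unadjusted p under 0.05.

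Of the 25 contractile and myofibroblast genes, 6 fell and 0 rose, with a median of −0.19. Acta2, the smooth muscle actin that marks myofibroblasts, was listed at 1054, 1210 and 1134 TPM without and 675, 631 and 728 TPM with BCKA. Complete medium (697 ± 12.9 TPM) and BCAA add-back (732 ± 34.1 TPM; SD, n = 3) were near the BCKA level, and the BCAA-free libraries lay above all of them. The log2 change was −0.74 (SE 0.16, adjusted p = 0.0273). Calponin, Cnn1, went from 32.4, 37.9 and 46.2 TPM to 22.8, 17.3 and 20.0 TPM (−0.91, SE 0.20, adjusted p = 0.0351). Tagln, Actg2, Myh11 and Myl9, all parts of the smooth muscle cytoskeleton, fell by 0.61, 0.81, 0.69 and 0.53. Here too single libraries counted: 0 of these genes passed without BCKA replicate 2, and 1 or 2 without any 1 of the other 5 libraries. Acta2 lost its call whichever of the 6 was left out (adjusted p = 0.0633 to 0.152). The 29 genes of the TGF-β response list gave 0 passing genes in limma and a median of 0.09, with 2 higher and 0 lower by unadjusted p under 0.05.

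Of 14 tested markers of alveolar and adventitial fibroblasts, 2 fell (Dpt and Mfap4) and 0 rose, with a median of −0.08 and 4 positive changes. Of 43 extracellular matrix genes 2 fell and 0 rose, with a median of −0.18. At an unadjusted p under 0.05 in limma, 8 of the 43 were lower and 1 higher, beside 2.41 and 4.35% of all tested genes. In 19 of the 43 all 3 BCKA libraries lay below all 3 others and in 2 above, beside 4.66 and 8.93% of all tested genes. The 4 genes that fell in these 2 lists and Adamtsl2, which is on none of the lists, were also lower with BCKA than with BCAA and than in complete medium. Adamtsl2, a secreted protein that binds fibrillin, was listed at 10.5, 13.1 and 12.6 TPM without and 5.30, 3.25 and 3.95 TPM with BCKA, and it fell by 1.35 (SE 0.16, adjusted p = 8.81e-05). It stood at 7.50 ± 1.66 TPM in complete medium and 8.99 ± 0.17 TPM with BCAA (SD, n = 3). Dermatopontin, Dpt, a marker of adventitial fibroblasts, was listed at 16.8, 16.7 and 20.4 TPM without and 9.30, 11.9 and 9.66 TPM with BCKA (−0.75, SE 0.13, adjusted p = 0.00269). Complete medium held 30.7 ± 1.30 TPM (SD, n = 3) of it, so that both BCAA-free groups were below it. Mfap4, an elastic fibre protein, fell by 0.58 (adjusted p = 0.00444). The collagen-binding proteoglycans Fmod and Lum fell by 0.58 and 0.66 (adjusted p = 0.00281 and 0.0355), and they were the 2 matrix genes that fell. Lum lost its call without any 1 library other than BCAA-free replicate 2 (adjusted p = 0.0885 to 0.238), which left Fmod alone. The main collagen of the list, Col1a1, was listed at 5008, 4342 and 4151 TPM without and 3145, 3291 and 3557 TPM with BCKA. The groups did not overlap, yet the interval of its change, with a spread estimated over all 8 groups, ran from −1.20 to 0.34. Col1a1 did not pass (adjusted p = 1). Under the 15 other settings its change was −0.55 to −0.35, and it passed in 1 of them (adjusted p = 0.00487 in limma). Fn1 gave −0.04 with an interval of −0.59 to 0.52. The stromelysin Mmp3 rose by 0.44 (adjusted p = 0.0457), from 2265 to 2574 TPM up to 2947 to 3527 TPM, a call that was lost whichever of the 6 libraries was left out (adjusted p = 0.0503 to 0.295) and after median centring.

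The genes that convert or oxidise BCKA and those that sense amino acids did not pass. The transaminases and the dehydrogenase complex with its regulators (8 genes) gave 0 passing genes in limma and 0 at an unadjusted p under 0.05, with a median log2 change of 0.04. Bcat1 was listed at 18.9, 17.7 and 20.0 TPM without and 17.2, 18.8 and 18.2 TPM with BCKA, and the 95% confidence interval of its change was −0.33 to 0.21. The interval of Bckdk was −0.21 to 0.26, that of Ppm1k −0.17 to 0.33 and that of Ivd, which oxidises the leucine product further, −0.29 to 0.12. The amino acid shortage list (36 genes) had 0 that passed in limma and a median of 0.10, and an unadjusted p under 0.05 was reached by 3 as higher and 3 as lower. A standard readout of that response, Asns (asparagine synthetase), stood at 42.7, 53.6 and 48.5 TPM without and 38.3, 39.4 and 44.4 TPM with BCKA. The groups overlapped, and its interval was −0.56 to 0.08. The 20 cytosolic aminoacyl-tRNA synthetases gave 0 passing genes, a median of 0.05, and 2 higher and 0 lower by unadjusted p under 0.05. Of 14 tested genes of monocarboxylate and BCAA transport, 1 rose (Slc16a3, named above) and 0 fell, with a median of 0.06. Over all tested genes 0.397% rose and 0.268% fell. Slc16a1, a carrier of monocarboxylates that can bring keto acids into cells, was at 58.3, 42.9 and 52.7 TPM without and 71.2, 64.9 and 64.1 TPM with BCKA and did not pass (0.38, adjusted p = 0.119). The 36 genes of nuclear oxidative phosphorylation gave 0 passing genes in limma, 0 at an unadjusted p under 0.05 and a median of −0.03, beside the 9 glycolytic genes that rose.

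The other resting groups show where the BCKA level stood, and each differs from it in a named way: BCAA carry an amino group where BCKA carry a keto group, and complete medium never lacked BCAA. At concentrations that the labels do not give, and that may therefore differ, 85 genes differed between BCKA and BCAA add-back (0.65% of those tested; 49 or 0.375% higher with BCKA, 36 or 0.275% lower). Glycolysis gave 11 higher and 0 lower of 21 with a median of 0.50, and the hypoxia list 9 higher and 0 lower of 20 with a median of 0.31. Egln3 was higher with BCKA than with BCAA by 1.08 (adjusted p = 7.38e-06), Slc16a3 by 0.76 (adjusted p = 3.38e-06) and Fgf23 by 1.33 (adjusted p = 9.54e-05). Dpt was lower by 1.14 (adjusted p = 1.63e-05) and Clec3b, another matrix-associated gene of adventitial fibroblasts, by 1.31 (adjusted p = 3.28e-05). Cell division genes gave 0 passing genes in limma between the 2 add-backs and a median of 0.10, with 3 of 36 higher and 0 lower by unadjusted p under 0.05 (2.36 and 2.63% of all tested genes). For Acta2 the difference was −0.11 (adjusted p = 1), and for Hmox1 it was 0.31 (adjusted p = 1).

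Against complete medium 164 genes differed (1.25%; 95 or 0.726% higher with BCKA, 69 or 0.527% lower). Glycolysis gave 14 higher and 0 lower of 21 (median 0.58) and the hypoxia list 8 higher and 0 lower of 20 (median 0.35). Interferon response genes gave 5 lower and 0 higher of 35 with a median of −0.56, while against BCAA-free medium 0 of them passed in limma and the median was −0.04, with 0 higher and 1 lower by unadjusted p under 0.05. Among them were Ifit2, Ifit3, Ifi27l2a and Igtp, and 29 of the 35 were lower at an unadjusted p under 0.05, as were 3.5% of all tested genes (4.22% were higher). Of the 36 cell division genes 0 passed in limma against complete medium, with a median of 0.29. By unadjusted p under 0.05, 12 of the 36 were higher with BCKA and 0 lower, beside the same shares of all tested genes. Clec3b was lower than in complete medium by 1.82 (adjusted p = 1.94e-07) and Inmt, a methyltransferase of alveolar fibroblasts, by 0.94 (adjusted p = 0.000824), although neither passed against BCAA-free medium. These comparisons share the BCKA libraries, so their counts are not independent of each other.

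The genes that passed against BCAA-free medium differed in where complete medium and BCAA add-back stood. Those 6 libraries entered the choice of genes through the expression filter and the shared estimate of spread, but not through the change itself. Of the 52 genes that rose, 44 (84.6%) had all 3 BCKA libraries above all 6 of these libraries, as did 5.66% of all tested genes. For 16 of the 52 (30.8%) the BCAA-free libraries lay below all 6, as for 6.18% of all tested genes. Of the 35 genes that fell, 25 (71.4%) had the BCAA-free libraries above all 6, against 3.64% of all, and 16 (45.7%) had the BCKA libraries below all 6, against 5.39%. Since the same BCKA and BCAA-free libraries chose the genes, these shares describe them and are not a test.

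**Figure D4:**
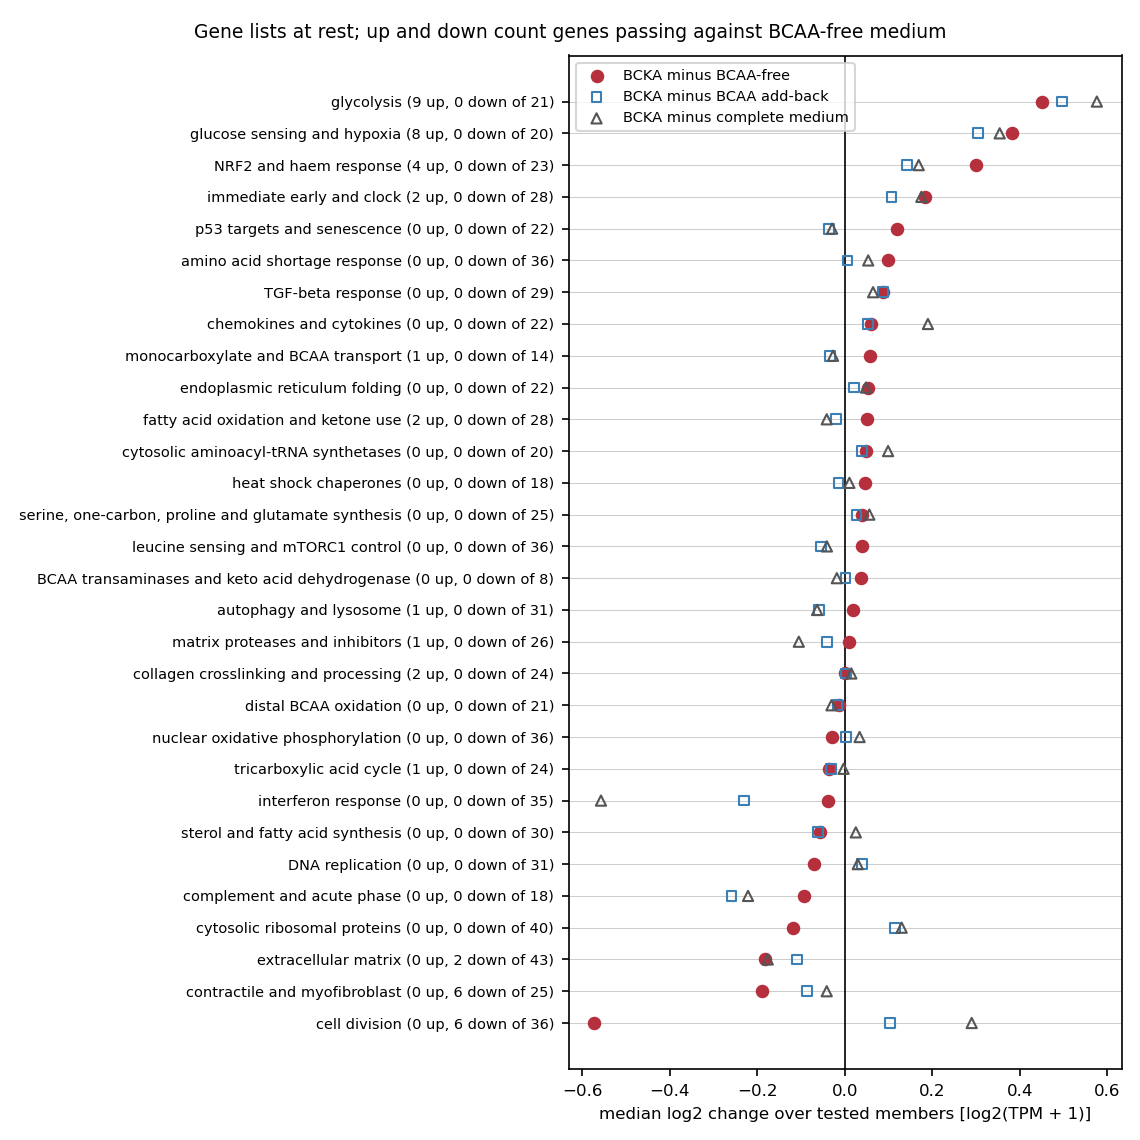
Median log2 change over the tested members of 30 gene lists for BCKA minus BCAA-free medium (filled circles), BCKA minus BCAA add-back (open squares) and BCKA minus complete medium (open triangles), all at rest, with the number of members that passed against BCAA-free medium beside each name. Glycolysis and hypoxia lie to the right in all 3, cell division lies far to the left against BCAA-free medium alone, and the interferon response lies far to the left against complete medium.

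The effect of BCKA under TGF-β1 was set against that at rest, first from BCAA-free medium. The difference between BCKA and BCAA add-back, which is another quantity, was compared in the same way. Libraries labelled TGF-β1 in BCAA-free medium stood apart from the other 21 fibroblast libraries, including those with TGF-β1 in the other media. In them Acta2 was listed at 109, 205 and 167 TPM, against 2045 to 2905 TPM in the 9 other libraries with TGF-β1. Tenm4, a cell surface protein of the nervous system, was listed at 69.3, 104 and 107 TPM in them and at no more than 0.484 TPM in any other; both genes were chosen here after their values were seen. They alone had genes at 5 TPM or more in all 3 libraries and under 1 TPM in all 21 others (3 genes), or the reverse (5 genes), while each other group had 0 of either kind. What sets these libraries apart was not tested.

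Measured from those libraries, the BCKA effect under TGF-β1 differed from that at rest in 5979 genes (45.7% of those tested; 2387 or 18.2% higher and 3592 or 27.5% lower, and 3050 and 2773 after median centring, which moved the median of all genes from −0.11 to 0.01). The 6 contractile genes named above fell at rest and were higher with BCKA under TGF-β1, and 22 of the 25 on the list had a higher BCKA effect under TGF-β1 than at rest, with 0 lower. Glycolysis gave 1 higher and 4 lower of 21 in this difference, with a median of 0.01, and under TGF-β1 itself 14 higher and 1 lower with BCKA, beside 25.1 and 33.4% of all genes tested. The difference between BCKA and BCAA add-back, a contrast chosen after the data were seen, changed between TGF-β1 and rest in 3 genes (0.0229%). Any effect that BCKA and BCAA share cancels in it. It therefore does not say whether the BCKA effect itself was the same under TGF-β1. Among the 3 genes were Dpt (1.39, adjusted p = 0.00124) and Clec3b (1.25, adjusted p = 0.0367), both lower with BCKA than with BCAA at rest.

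Between BCKA and BCAA add-back under TGF-β1, 35 genes differed (0.268%), with 29 higher (0.222%) and 6 lower (0.0459%). Glycolysis gave 6 higher and 0 lower of 21, with a median of 0.38, and the hypoxia list 7 higher and 0 lower of 20, with a median of 0.32. Egln3 was listed at 47.4, 44.8 and 43.2 TPM with BCAA and TGF-β1 and at 102, 100 and 102 TPM with BCKA and TGF-β1, clear of each other (log2 difference 1.15, adjusted p = 9.38e-06). The exporter Slc16a3 was higher by 0.70 (adjusted p = 1.41e-05), Slc2a1 by 0.66 (adjusted p = 0.00016) and Pdk1 by 0.62 (adjusted p = 0.00011). These differences lie near those at rest, which were 1.08, 0.76, 0.59 and 0.78 for the same 4 genes, and their change between TGF-β1 and rest was −0.16 to 0.07 (each adjusted p = 1).

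**Figure D5:**
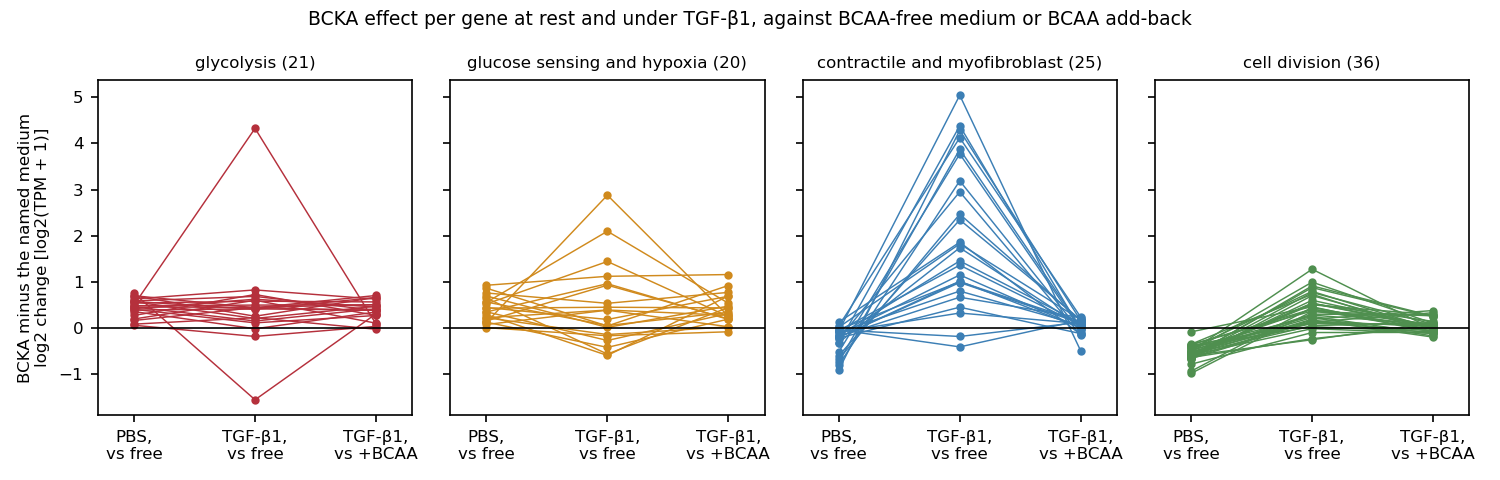
Log2 change with BCKA for each tested gene of 4 lists, each line a gene: at rest against BCAA-free medium, with TGF-β1 against BCAA-free medium, and with TGF-β1 against BCAA add-back. Contractile genes fan out upward against the BCAA-free libraries with TGF-β1, and return to near 0 against BCAA add-back, while most glycolysis genes are above 0 in all 3 columns.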

How the data were processed

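RNA was measured by poly(A) RNA-seq, per the labels' protocols. The authors deposited TPM values per gene and library, so read depth is not known and no count model could be run. The submitters' processing notes name Trim Galore, HISAT2, featureCounts and the mm39 build. TPM values of the 24 fibroblast libraries were analysed as log2(TPM + 1) with a filter of 1 TPM in at least 3 libraries. Group means over all 8 groups were fitted with limma 3.58.1 in R 4.3.3, with a mean-variance trend, and p-values were adjusted by Benjamini-Hochberg over all 13084 genes, two-sided, at 0.05. The 4 contrasts were tested with their alternatives, and the script was tested on simulated data. The named genes were the 10 largest rises and falls among passing genes with a mean of 5 TPM and no overlap, the 3 largest passing members of each list, and genes fixed by name. Others were chosen after their values were seen. The comparison and the gene lists were chosen with earlier results of these data known. The labels do not say whether counting used strand, so reads of overlapping antisense genes may be mixed. Promoter windows came from RefSeq on GRCm38.p6. The lung tables were not used here. A few genes are not reported here.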

Additional observations from a re-analysis of the deposited data

Results flagged for a closer look

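The effect of BCKA differed between TGF-β1 and rest in 5979 genes in limma's test of the difference itself, each effect being measured from BCAA-free medium. Among the genes followed by name this difference was positive for Itga8 (5.46), Cemip (5.31), Cnn1 (5.20), Acta1 (5.12), Actg2 (4.00) and Ecrg4 (2.59) on the log2 scale. It was 1.82 for Dpt, 1.64 for Adamtsl2, 1.63 for Iqgap3, 1.41 for Fgf23, 1.39 for Ckap2l, 1.36 for Prl2c2 and 1.34 for Cenpf. It was 1.17 for Mcpt8, 1.11 for Nxph4 and 1.08 for Pimreg. Negative differences were those of Tenm4 (−6.11), Adra2a (−5.61), Avil (−5.49), Chchd10 (−4.83), Hmox1 (−2.24) and Slc40a1 (−0.56). All of them use the 3 libraries labelled TGF-β1 in BCAA-free medium, which stood apart from the other 21. Tenm4 was listed at 69.3, 104 and 107 TPM in those 3 and at no more than 0.484 TPM in any other library. It therefore passed the expression filter only through them. For the difference between BCKA and BCAA add-back, in which shared effects cancel, Dpt alone of the genes in this list changed between TGF-β1 and rest.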

How the results depend on the processing

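Of the 43 named genes that passed against BCAA-free medium, 19 passed under all 15 other settings tried, 24 lost their call in at least 1 and 0 changed direction. The count of 87 became 51 with only the compared groups in the fit, 342 with array weights, and 44 to 59 with 1 library left out. The array weights were estimated gene by gene, because the REML estimate did not converge. Chosen after seeing the data, a fit without the TGF-β1 libraries in BCAA-free medium gave 188 (86 of the 87 shared) and a fit of the PBS groups alone gave 230 (84 shared). The 85 genes against BCAA add-back became 55 with a pseudocount of 0.1, 226 with only the compared groups, 543 with array weights and 48 to 67 with 1 library left out. The 164 against complete medium became 109, 507, 1072 and 87 to 103. Beside the 5979 genes of the TGF-β1 difference, 3 passed with BCAA add-back in place of BCAA-free medium, added after seeing the data. That contrast is another quantity, since effects that BCKA and BCAA share cancel in it. The causes were not tested. Replicate numbers are not said to pair the samples. Same-numbered deviations had correlations of 0.107, −0.158 and −0.375, and differently numbered ones of −0.42 to 0.455. With 3 libraries in a group these cannot settle whether the numbers pair. A fit with the replicate number as a block gave 87, 81, 165 and 6007 genes. Directions reversed only for genes that had not passed. Median centring gave −0.0074 for Bckdk, and array weights gave −0.111 for Bcat2, −0.0396 for Bckdhb, −0.0566 for Hmgcs1 and 0.0832 for Fn1. With 1 library left out, ranges crossed 0 for Bckdk (−0.0778 to 0.159), Bcat2 (−0.122 to 0.132), Bckdhb (−0.0615 to 0.226), Hmgcs1 (−0.0625 to 0.163), Fn1 (−0.135 to 0.122) and Bckdha (−0.111 to 0.101). They also did for Trib3 (−0.287 to 0.00455), Timp1 (−0.133 to 0.101), Ccn2 (−0.0609 to 0.114), Inmt (−0.221 to 0.0254), Clec3b (−0.405 to 0.04), Ddit3 (−0.016 to 0.171) and Chac1 (−0.00329 to 0.357). Depth is unknown, so no counting error can be given.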
